A study of Mus musculus with 2 samples.

Results

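The laminin chains Lama2, Lama4, Lama5, Lamb1, Lamb2 and Lamc1, the nidogens Nid1 and Nid2, and the proteoglycans perlecan (Hspg2) and agrin (Agrn) are 10 genes of the basement membrane, chosen by name from the 26082 genes listed for each library. In primary mouse fibro-adipogenic progenitors (FAPs), the α chains Lama2 and Lama4 and the β chains Lamb1 and Lamb2 were lower in the library labelled TGFBR3 OE than in the library labelled control, by 1.62-fold to 2.18-fold in FPKM. The γ chain Lamc1, the partner of all of them, was at 69.26 and 62.70 FPKM. Agrn was higher in the library labelled TGFBR3 OE, by 2.15-fold.

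A laminin is a trimer of an α, a β and a γ chain, and trimers join into a sheet at the cell surface. Nidogens link this sheet to the collagen IV network, and perlecan and agrin carry heparan sulfate chains that bind growth factors. In skeletal muscle a basement membrane wraps every fibre, while FAPs are stromal cells that lie between the fibres, secrete matrix and can become adipocytes, which build a basement membrane of their own.

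FAPs of genotype WT were transfected with plasmids overexpressing TGFBR3, a co-receptor for TGF-β ligands, or with the vector, and RNA was sequenced from 1 library of each. By the labels both libraries came from cells under adipogenic differentiation, for which the induction medium held insulin at 10 μg/ml, IBMX at 0.5 mM and dexamethasone at 0.25 μM beside 20% FBS. The study's methods describe FAPs sorted by flow cytometry from hind limb muscle. The study worked with young adult C57BL/6 mice, but which animals gave each culture, how many there were and the share of cells that took up the plasmid are not given in the sources used here. The library labelled TGFBR3 OE held 62321027 counts in all and the library labelled control 83779203. Tgfbr3 (ENSMUSG00000029287), the mouse gene of that name, was at 36.87 FPKM from 16372 counts in the library labelled TGFBR3 OE and at 35.13 FPKM from 21245 counts in the other. The paper also shows RT-PCR of TGFBR3 in FAPs given the plasmid or the vector. It does not state the species or insert of the plasmid, so whether its transcripts count towards Tgfbr3 is not known. Since Tgfbr3 stood at nearly the same level in both, the libraries are named by label only, and so is every direction.

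Levels are in FPKM, the fragments of a gene scaled by its exon length and by the size of the library, which allows comparison between genes. A difference is the log2 of (FPKM + 1) in the library labelled TGFBR3 OE over the same in the library labelled control, called the log2 ratio, and the added 1 makes the change of low genes look smaller than it is. The 95% confidence interval (CI) is exact (Clopper-Pearson), rests on the counts of the gene in both libraries and covers counting error only. Since each condition has 1 library, differences have no replicate check and no p-value, and the values compare these libraries, not the conditions. A gene is called past 1.5-fold where its log2 ratio is at least 0.585 either way. The background is the 11213 genes whose mean FPKM reached 1, which are called expressed, and their median log2 ratio was 0.14. Centred ratios are those less 0.13, the median over genes that reached 1 FPKM in each library.

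All 10 members belong to the background by level. Of them 4 were past 1.5-fold lower in the library labelled TGFBR3 OE, where 4.91% of the background genes were, and 1 was past 1.5-fold higher, where 13.3% of the background genes were. At 2-fold, 1 member was higher and 0 were lower, beside 3.14% and 1.03% of the background genes. The median log2 ratio of the members was −0.32, and −0.44 when centred. A ratio under 0 was found for 7 of the 10 members and for 36.7% of the background genes. Together the members made up 0.343% of the counts of the library labelled TGFBR3 OE and 0.444% of those of the library labelled control.

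**Figure D1:**
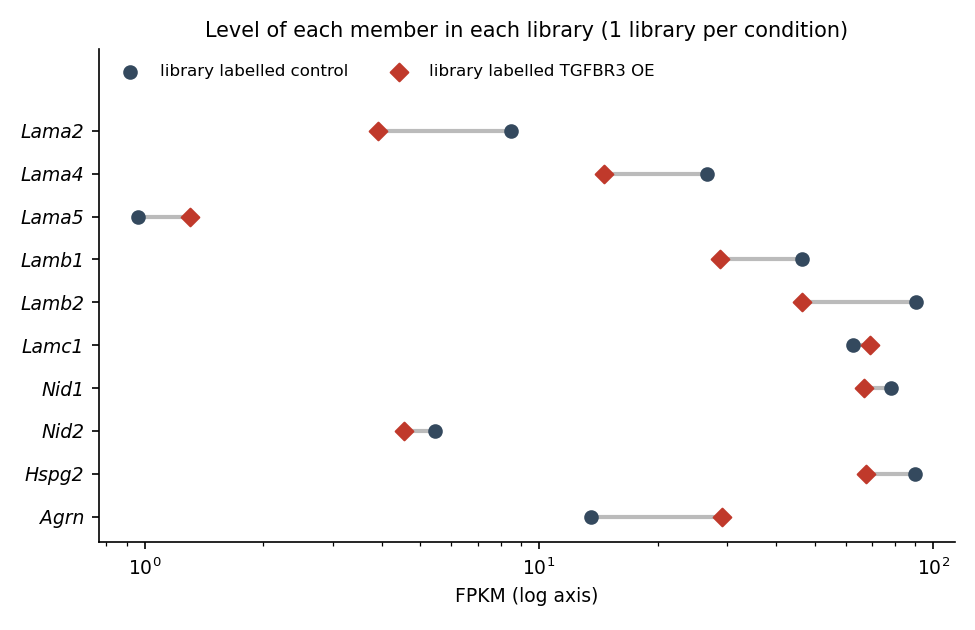
FPKM (log axis) of each member in the library labelled control (circles) and the library labelled TGFBR3 OE (diamonds), 1 library each, with a line joining the values of a gene. Lama2, Lama4, Lamb1 and Lamb2 have the diamond well to the left of the circle, Agrn has it to the right, and Lamc1 has both near each other at 62.70 and 69.26 FPKM.

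The levels spanned a wide range within each library. In the library labelled control, Lamb2 (90.36 FPKM) and Hspg2 (90.02 FPKM) stood at the top, followed by Nid1, Lamc1, Lamb1, Lama4, Agrn, Lama2, Nid2 and, at 0.96 FPKM, Lama5. In the library labelled TGFBR3 OE the order was Lamc1 (69.26 FPKM), Hspg2 (67.69 FPKM), Nid1 (66.74 FPKM), Lamb2, Agrn, Lamb1, Lama4, Nid2, Lama2 and Lama5. Lamb2 thus moved from above Lamc1 to below it, and Agrn from below Lama4 to above it and next to Lamb1. Without replicates the spread between cultures is unknown, so whether close neighbours in either order differ cannot be judged.

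The promoters of the members past 1.5-fold are shown because these genes differ between the libraries in opposite directions. RefSeq windows on GRCm38.p6, from 250 bases before a transcript start to 50 bases after it, were found for 7 of the 10 members, and Lama4, Lamc1 and Nid2 had no entry. Capitals mark the letters of 4 motifs found on either strand: the GC box GGGCGG, the SMAD element CAGAC, the TATA box TATAAA and the STAT element TTCNNNGAA. Of all 32851 windows of this length, 35.7% hold the GC box, 49.6% the SMAD element, 13.6% the TATA box and 8.3% the STAT element. The windows are written along the strand of the gene. Agrn lies at chr4:156197439-156197738 on the minus strand, Lama2 at chr10:27616893-27617192 on the minus strand, Lamb1 at chr12:31265043-31265342 on the plus strand and Lamb2 at chr9:108479612-108479911 on the plus strand.
Agrn: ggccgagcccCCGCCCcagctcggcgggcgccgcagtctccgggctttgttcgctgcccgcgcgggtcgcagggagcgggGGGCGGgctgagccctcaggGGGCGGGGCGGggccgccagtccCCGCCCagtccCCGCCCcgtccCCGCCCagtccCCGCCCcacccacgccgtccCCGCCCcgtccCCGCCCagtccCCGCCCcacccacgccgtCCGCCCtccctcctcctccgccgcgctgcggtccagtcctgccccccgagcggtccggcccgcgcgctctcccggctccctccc
Lama2: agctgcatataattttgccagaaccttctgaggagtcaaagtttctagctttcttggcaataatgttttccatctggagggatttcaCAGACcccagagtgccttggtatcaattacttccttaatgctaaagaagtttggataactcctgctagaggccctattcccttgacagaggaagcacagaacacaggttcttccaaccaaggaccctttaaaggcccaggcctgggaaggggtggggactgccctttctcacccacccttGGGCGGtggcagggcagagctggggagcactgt
Lamb1: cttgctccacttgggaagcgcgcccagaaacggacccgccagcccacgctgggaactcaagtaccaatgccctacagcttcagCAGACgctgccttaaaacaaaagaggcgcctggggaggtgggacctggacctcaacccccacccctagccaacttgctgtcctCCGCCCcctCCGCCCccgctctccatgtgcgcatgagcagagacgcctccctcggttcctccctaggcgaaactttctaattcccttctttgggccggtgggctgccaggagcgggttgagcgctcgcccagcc
Lamb2: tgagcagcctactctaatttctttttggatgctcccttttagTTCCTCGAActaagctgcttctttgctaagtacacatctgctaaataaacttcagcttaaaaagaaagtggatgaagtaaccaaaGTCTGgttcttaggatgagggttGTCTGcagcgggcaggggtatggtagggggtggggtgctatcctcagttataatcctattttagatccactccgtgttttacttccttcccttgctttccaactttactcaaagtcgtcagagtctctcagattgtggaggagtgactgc

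The table holds 2 windows for Agrn, and the one printed, at the outermost start, held 12 matches to the GC box, of which one pair overlaps, and 83.3% of its bases were G or C, against a median of 52.7% over all windows. The Agrn window not printed, at the inner start chr4:156186210-156186509, held 2 GC boxes and 61.3% G or C. The other 3 printed windows had 2 GC boxes for Lamb1, 1 for Lama2 and 0 for Lamb2. The Lamb2 window, with 44.0% G or C, had 2 SMAD elements and 1 STAT element, and the windows of Lama2 and Lamb1 had 1 SMAD element each. No 2 different motifs overlapped. The start of the printed Agrn window is also the outermost start in GENCODE, whereas those for Lamb1, Lamb2 and Lama2 lie 59, 126 and 2816 bases downstream of it, so the Lama2 window belongs to an inner start. A match to such short letters is a description of the sequence and shows no binding.

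The α chains carry the part of a laminin that binds receptors on the cell. Lama2, which encodes the α chain of the muscle fibre's laminin and is mutated in a congenital muscular dystrophy, lies on the minus strand of chromosome 10 (26980036 to 27619758, mm10) and has 65 exons in its longest transcript. Its level was 3.90 FPKM (4397 counts) in the library labelled TGFBR3 OE and 8.50 FPKM (13051 counts) in the library labelled control. Its log2 ratio came to −0.96 (95% CI −1.0 to −0.91), and 133 of the 11213 background genes had a lower one. By the plain ratio of FPKM, Lama2 was the 1 member more than 2-fold lower. Its promoter window is printed above, and 3.86% of its exon bases overlap the antisense gene Gm48084.

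Lama4, the α chain found in the basement membranes of blood vessels and of adipocytes, lies on the same chromosome from 38965515 to 39110188 on the plus strand. It was the most abundant α chain, at 14.59 FPKM (11947 counts) and 26.76 FPKM (29842 counts) in the libraries labelled TGFBR3 OE and control. The log2 ratio of −0.83 (95% CI −0.86 to −0.80) was close to that of Lama2, and both were lower in the library labelled TGFBR3 OE. Lama5, the broadly used α chain of epithelia and vessels (chromosome 2, 180176373 to 180225859, minus strand), was near the lower limit of the background genes. Its FPKM was 1.30 from 1008 counts and 0.96 from 1015 counts, a log2 ratio of 0.23 (95% CI 0.16 to 0.30). Its centred log2 ratio was 0.10, near the median gene on this scale. By the plain ratio of FPKM Lama5 was at 0.44, beside a median of 0.17 over the genes compared, so this nearness depends on the added 1.

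The α chain transcripts summed to 19.8 FPKM in the library labelled TGFBR3 OE and to 36.2 FPKM in the library labelled control. Lama4 made up 73.7% and 73.9% of this sum and Lama2 19.7% and 23.5%, while the share of Lama5 was 6.57% and 2.65%. The ratio of Lama2 to Lama4 counts was 0.368 against 0.437. Its log2 ratio between the libraries was −0.25 (95% CI −0.31 to −0.19 by Woolf's method, counting error only), a smaller difference than that of either chain on its own.

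Both β chains were lower in the library labelled TGFBR3 OE, as the plot of levels shows. Lamb1, the β chain of most early and widespread laminins, lies on chromosome 12 from 31265234 to 31329644 on the plus strand. It was at 28.80 FPKM (19380 counts) in the library labelled TGFBR3 OE and at 46.57 FPKM (42679 counts) in the other, a log2 ratio of −0.67 (95% CI −0.70 to −0.65). Lamb2, the β chain of the neuromuscular junction and the kidney filter, lies on chromosome 9 from 108479736 to 108490530 on the plus strand. It was at 46.38 FPKM (19140 counts) and 90.36 FPKM (50780 counts) in the libraries labelled TGFBR3 OE and control. Its log2 ratio was −0.95 (95% CI −0.97 to −0.92), lower than that of all but 140 background genes. The ratio of Lamb1 to Lamb2 counts was 1.01 in the library labelled TGFBR3 OE and 0.84 in the library labelled control, a log2 ratio of 0.27 (95% CI 0.23 to 0.30). That interval covers counting error only. With the trend over exon GC content removed, as described below, Lamb1 was at −0.81 and Lamb2 at −0.82. With the trend over exon length removed they were at −0.93 and −1.16. The difference in their balance thus depends on the correction. Lamb2 was the larger β chain by FPKM in both libraries, with 61.7% and 66.0% of the summed β level.

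Lamc1 encodes the γ chain shared by most laminins and is required for any basement membrane in the early embryo. The gene lies on chromosome 1 from 153218922 to 153332786 on the minus strand, and it differed little between the libraries. Its level was 69.26 FPKM (38866 counts) in the library labelled TGFBR3 OE and 62.70 FPKM (47920 counts) in the library labelled control. With a log2 ratio of 0.14 (95% CI 0.12 to 0.16), it had 5616 background genes below it and 5596 above, and its centred value was 0.02. Lamc1 therefore sat in the middle of the background, while 4 of the other 5 laminin chains were past 1.5-fold lower.

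**Figure D2:**
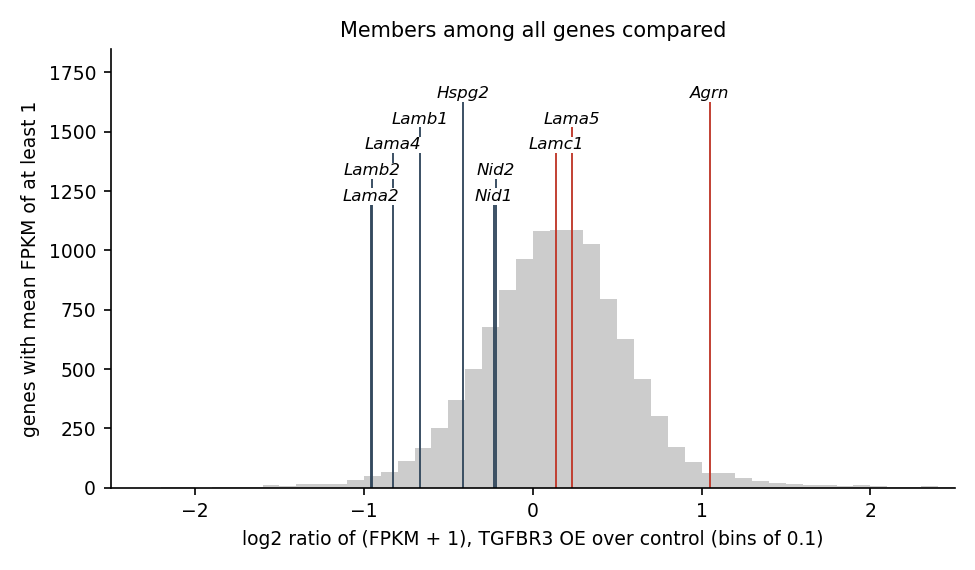
Histogram of the log2 ratio of (FPKM + 1), TGFBR3 OE over control by label, for the 11213 background genes in bins of 0.1 (grey), drawn from −2.5 to 2.5, with a line at the ratio of each member (red above 0, blue below). Lama2, Lamb2, Lama4 and Lamb1 lie in the left tail, Lamc1 lies near the median of 0.14, and Agrn lies in the right tail at 1.05.

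Because a ratio of 2 genes within a library does not depend on the library total, each chain was also set against Lamc1. There were 0.307 Lama4 counts per Lamc1 count in the library labelled TGFBR3 OE and 0.623 in the library labelled control, a log2 ratio of −1.02 (95% CI −1.05 to −0.98). For Lama2 the count ratios were 0.113 and 0.272, a log2 ratio of −1.27 (95% CI −1.32 to −1.21). Both α chains were thus lower relative to the γ chain by 2.03-fold and 2.41-fold. The β chains were lower against Lamc1 too, by 2.15-fold for Lamb2 (count ratios of 0.492 and 1.06) and by 1.79-fold for Lamb1 (0.499 and 0.891). Lama5, with 0.0259 and 0.0212 counts per Lamc1 count, was the exception among these chains.

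By summed FPKM, the α chains stood at 0.286 of the level of Lamc1 in the library labelled TGFBR3 OE and at 0.578 in the library labelled control, and the β chains at 1.09 and 2.18. The β chains stood at 3.8 and 3.78 times the level of the α chains. By these sums the α and β classes were at nearly the same proportion to each other in both libraries, and their proportion to the γ chain differed. With the trend over exon GC content removed, as described below, the log2 ratio was −1.30 for Lama2, −1.15 for Lama4 and 0.48 for Lama5. It was −0.81 for Lamb1 and −0.82 for Lamb2, so the equal proportion is that of FPKM as reported.

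**Figure D3:**
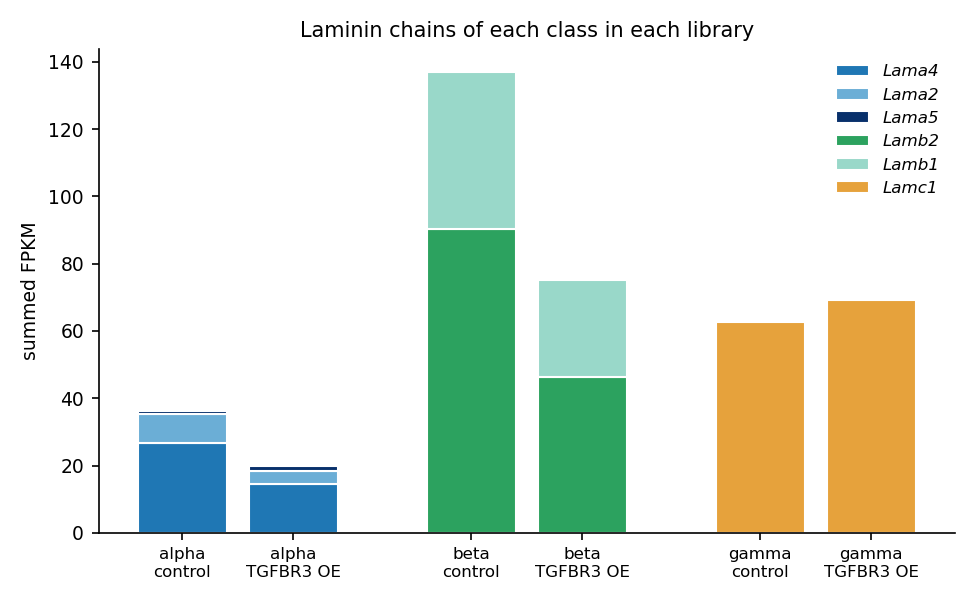
Summed FPKM of the laminin α, β and γ chains in the library labelled control and the library labelled TGFBR3 OE, 1 library each, with each chain as a coloured part of its bar. The α bars reach 36.2 and 19.8, the β bars 137 and 75.2, and the γ bars, made of Lamc1 alone, 62.7 and 69.3.

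The nidogens, which bind the γ chain of laminin and collagen IV, were not past 1.5-fold. Nid1 (chromosome 13, 13437551 to 13512269, plus strand) was at 66.74 FPKM (31438 counts) in the library labelled TGFBR3 OE and at 78.24 FPKM (50189 counts) in the library labelled control, a log2 ratio of −0.23 (95% CI −0.25 to −0.21). Nid2 (chromosome 14, 19751265 to 19811787, plus strand) was at 4.55 FPKM (1599 counts) and 5.46 FPKM (2613 counts), a log2 ratio of −0.22 (95% CI −0.29 to −0.14). By counts as reported, the nidogens stood at nearly the same proportion to each other in both libraries, with 19.7 and 19.2 Nid1 counts per Nid2 count. The interval of the log2 ratio spans 0 (0.03, 95% CI −0.06 to 0.13). With the trend over exon GC content removed, as described below, Nid1 was at −0.46 and Nid2 at −0.22, so the proportion depends on this correction. Against Lamc1, Nid1 was lower in the library labelled TGFBR3 OE, with count ratios of 0.809 and 1.05. Exons of genes on the other strand cover 2.06% of the exon bases of Nid1 (Gm48682, with 1 and 0 counts) and 8.45% of those of Nid2. The gene over Nid2 is Rtraf, which had 7238 and 10767 counts, several times those of Nid2, and overlapping reads can be told apart only by strand. The methods name a stranded library kit and the labels a dUTP-marked second strand, but the strand setting of the counting is not given in the sources used here, so the Nid2 values are uncertain.

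The heparan sulfate proteoglycans differed in direction. Hspg2 encodes perlecan, a very large protein of nearly all basement membranes, and lies on chromosome 4 from 137468769 to 137570630 on the plus strand with 97 exons. It had the most counts of the members, 67684 (67.69 FPKM) in the library labelled TGFBR3 OE and 122589 (90.02 FPKM) in the library labelled control. The log2 ratio was −0.41 (95% CI −0.42 to −0.39), short of 1.5-fold. Agrn encodes agrin, which binds laminin and dystroglycan and, in the form made by motor neurons, clusters acetylcholine receptors at the neuromuscular junction. The gene lies on chromosome 4 from 156165290 to 156197488 on the minus strand.

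Agrn was at 29.15 FPKM (18363 counts) in the library labelled TGFBR3 OE and at 13.55 FPKM (11624 counts) in the library labelled control. Its log2 ratio was 1.05 (95% CI 1.02 to 1.08), and 310 background genes, or 2.76%, had a higher one. Agrn was the 1 member with more counts in the library labelled TGFBR3 OE, although that library had the smaller total. There were 0.271 Agrn counts per Hspg2 count in the library labelled TGFBR3 OE and 0.0948 in the library labelled control, a log2 ratio of 1.52 (95% CI 1.48 to 1.55). The summed level of both proteoglycans was 96.8 and 104 FPKM, and the share of Agrn in it was 30.1% against 13.1%. Which Agrn transcript was read, the neural or the other splice form, cannot be seen in counts per gene.

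**Figure D4:**
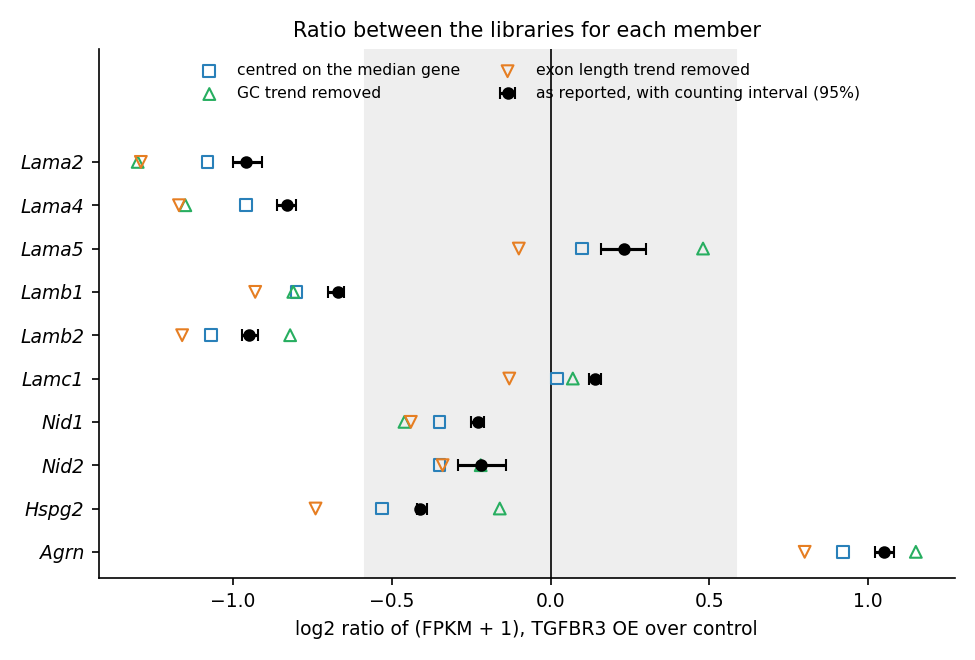
Log2 ratio of (FPKM + 1), TGFBR3 OE over control by label, for each member as reported (black, with the 95% counting interval) and after centring or removal of the trend over GC content or exon length (open symbols), with the range inside 1.5-fold in grey. Lama2, Lama4, Lamb1 and Lamb2 lie left of the grey range and Agrn right of it with every symbol, Hspg2 leaves it with the length trend removed, and Lamc1 and Lama5 have symbols on both sides of 0.

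The ratio of the background genes varied with their composition, with a median of 0.45 in the bin of lowest exon GC content and of −0.25 in the highest of 20 bins, and with medians from −0.07 to 0.33 over bins of summed exon length. The members are long, with 5174 to 16338 exon bases, and their GC content ran from 43.6% in Lama2 and 44.4% in Lama4 to 60.8% in Hspg2. With the GC trend removed, the log2 ratios were −1.30 for Lama2, −1.15 for Lama4, −0.81 for Lamb1, −0.82 for Lamb2 and 1.15 for Agrn. With the length trend removed they were −1.29, −1.17, −0.93, −1.16 and 0.80 in the same order, and Hspg2 came to −0.74, past 1.5-fold. With the GC trend removed Hspg2 moved the other way, from −0.41 as reported to −0.16. The 5 called members thus remained past 1.5-fold under both corrections. The ratios of Lamc1 and Lama5 took the other sign with the length trend removed, at −0.13 and −0.10.

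The members were next set beside the other genes of the basement membrane. The laminin chains Lama1, Lama3, Lamb3 and Lamc3 were under 1 FPKM in both libraries. Among the 10 basement membrane collagens, 4 were expressed, of which 2 were past 1.5-fold lower and 0 higher, with a median log2 ratio of −0.55. Of the background genes, 4.91% were past 1.5-fold lower and 13.3% higher, with a median of 0.14. The 2 lower collagens were the chains of the common collagen IV trimer. Col4a1 was at 139.64 and 218.13 FPKM in the libraries labelled TGFBR3 OE and control, a log2 ratio of −0.64 (95% CI −0.65 to −0.63). Col4a2 was at 138.16 and 229.74 FPKM, a log2 ratio of −0.73 (95% CI −0.74 to −0.72). With the GC trend removed their ratios were −0.58 and −0.48, both short of 1.5-fold, the former narrowly. The other 2, named after their values were seen, were Col18a1 at −0.46 and Col4a5 at 0.09.

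Of 19 other basement membrane components, 8 were expressed, with a median log2 ratio of −0.24 beside 0.14 for the background. Of these 8, 1 was past 1.5-fold lower and 0 higher, beside 4.91% and 13.3% of the background genes. Fbln1, the matrix glycoprotein fibulin, was the 1 past 1.5-fold on this scale, at 5.12 FPKM in the library labelled TGFBR3 OE and 10.94 FPKM in the library labelled control, a log2 ratio of −0.96 (95% CI −1.04 to −0.89). The most abundant were Sparc, a collagen-binding glycoprotein, at 1190.52 and 1306.25 FPKM, and Fbln2, a second fibulin, at 577.56 and 824.92 FPKM. The log2 ratio was −0.13 for Sparc and −0.51 for Fbln2. When centred, or with the length trend removed, 3 of the components were past 1.5-fold lower, Fbln1, Fbln2 and Ntn1, the last named after its values were seen.

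Receptors and partners of these proteins showed no common direction. Of 20 listed genes 14 were expressed, of which 7 had a ratio above 0 and 7 below, with a median of 0.05 beside 0.14 for the background. Past 1.5-fold were 1 higher and 1 lower, beside 13.3% and 4.91% of the background genes. Itgb1, the β subunit of most laminin-binding integrins, was the most abundant, at 292.35 FPKM in the library labelled TGFBR3 OE and 229.98 FPKM in the library labelled control, and the tetraspanin Cd151, which associates with them, was at 128.01 and 164.55 FPKM. Musk, the kinase through which neural agrin acts, was past 1.5-fold higher at a low level, with 386 counts (1.5 FPKM) and 217 counts (0.62 FPKM) and a log2 ratio of 0.63 (95% CI 0.51 to 0.74). Bcam, a receptor for Lama5-containing laminins, was past 1.5-fold lower, at 5.19 and 9.04 FPKM, a log2 ratio of −0.70 (95% CI −0.78 to −0.61). With the GC trend removed these ratios were 0.49 and −0.57, both short of 1.5-fold, and that of Musk was also short of it when centred, at 0.50. Dag1, named after its values were seen because dystroglycan binds Lama2, Hspg2 and Agrn, was at 37.88 and 40.10 FPKM.

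**Figure D5:**
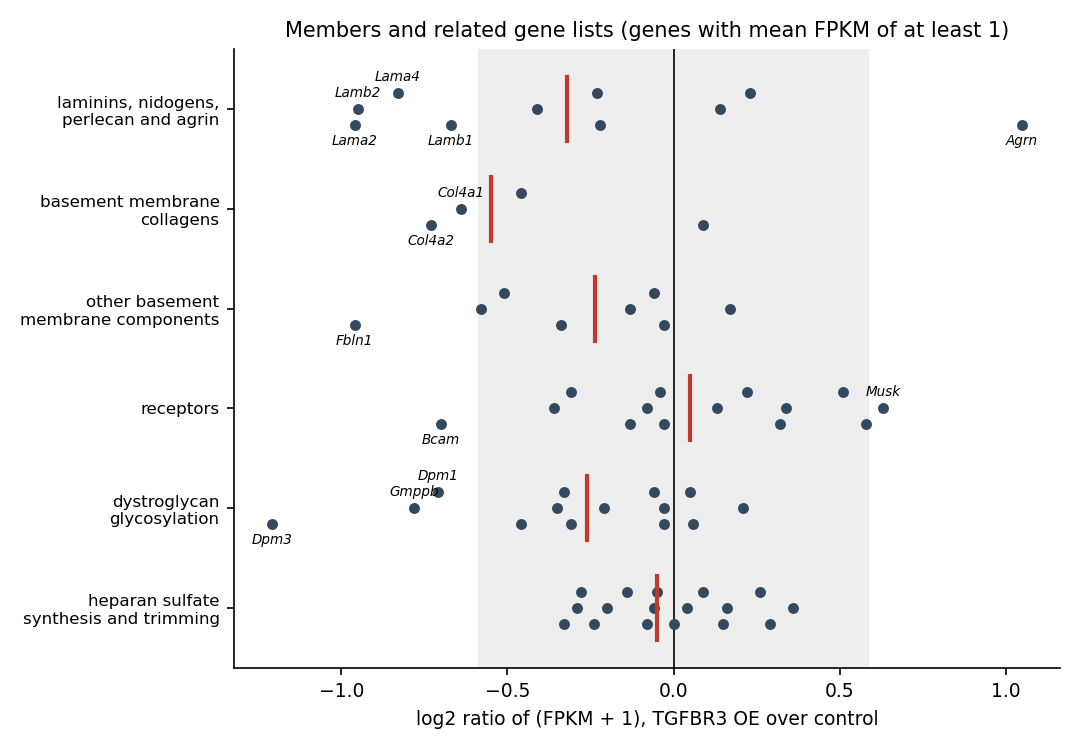
Log2 ratio of (FPKM + 1), TGFBR3 OE over control by label, for the members and for related gene lists, with 1 point for each expressed gene, a red bar at the median of each list, and the range inside 1.5-fold in grey (points are spread vertically for legibility). Genes past 1.5-fold are named: the medians are −0.32 for the members, −0.55 for the basement membrane collagens and 0.05 for the receptors.

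The label of the cells was checked against marker genes. Of the 10 FAP markers 8 were expressed, led by Ly6a at 1012.73 and 706.37 FPKM in the libraries labelled TGFBR3 OE and control, Thy1 at 114.15 and 117.48 FPKM and Pdgfrb at 88.88 and 94.32 FPKM. The other 2, Lum (0.27 and 0.03 FPKM) and Pi16 (0.03 and 0.08 FPKM), were under 1 FPKM in both libraries. Of the 8, beside 13.3% and 4.91% of the background genes, 0 were past 1.5-fold higher and 1 lower, Dpt. These 3 genes were named after their values were seen. Of the 10 endothelial markers 8 were under 1 FPKM in both libraries, and the sum of all 10 was 3.95 and 3.71 FPKM. The most abundant were Egfl7 (1.42 and 1.56 FPKM), Tek (1.04 and 1.09 FPKM) and Cdh5 (0.58 and 0.84 FPKM). Of the 8 Schwann cell markers 6 were analysed here, all under 1 FPKM, with a sum of 0.65 and 0.60 FPKM. The 6 of 10 muscle cell markers analysed here summed to 1.66 and 1.33 FPKM. Des (1.13 and 0.75 FPKM) made up most of this, followed by Acta1 (0.47 and 0.49 FPKM) and Myog (0 and 8 counts). The 9 macrophage markers were all under 1 FPKM in both libraries. The most abundant were Csf1r (0.46 and 0.39 FPKM), C1qb (0.27 and 0.00 FPKM) and Laptm5 (0.13 and 0.05 FPKM). The 7 pericyte and smooth muscle markers with values summed to 10.6 FPKM in both libraries, of which 3 were expressed, Notch3 (6.34 and 4.85 FPKM), Cspg4 (2.33 and 2.86 FPKM) and Myh11 (1.26 and 1.77 FPKM).

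The summed level of the adipocyte markers was lower in the library labelled TGFBR3 OE. So were the levels of Lama2, Lama4, Lamb1, Lamb2, Nid1, Nid2 and Hspg2, but not those of Lama5, Lamc1 and Agrn. The sum of the adipocyte markers was 52.1 FPKM in the library labelled TGFBR3 OE and 88.5 FPKM in the library labelled control. All 6 expressed ones had a ratio under 0 as reported, with a median of −0.31. Cfd, the adipocyte-secreted complement factor, was at 15.33 and 39.04 FPKM, Fabp4, a fatty acid carrier, at 12.60 and 13.94 FPKM, and the lipase Pnpla2 at 13.29 and 13.59 FPKM. The log2 ratio was −0.14 for Fabp4 and −0.03 for Pnpla2, and −0.52 and 0.07 with the GC trend removed. Of the 6 expressed markers 2 were past 1.5-fold lower, Cfd and Adipoq, beside 4.91% of the background genes. Adipoq was named after its values were seen. The paper reports the other direction for overexpression of TGFBR3, with more adipogenesis of FAPs in culture and adipogenesis pathways higher in its RNA-seq. The part of the adipocyte markers in the laminin ratios was not tested, and in bulk RNA a smaller share of differentiated cells and less RNA per cell cannot be told apart.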

How the data were processed

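RNA of primary mouse FAPs was sequenced as paired reads of 150 nt, with 1 library labelled TGFBR3 OE and 1 labelled control. The authors deposited raw counts per gene beside FPKM values, in which gene length and library total are divided out. The paper's methods name STAR and FeatureCounts on mm10, while the submitters' processing notes name cutadapt 1.9, HISAT2 2.2.1, StringTie 2.1.6, DESeq2 and edgeR; which of them made these files is not stated, nor is the strand setting or annotation release. For 8 of the 10 members, FPKM and count over exon length and a common total differed by at most 1%, and the largest difference was 2.97%. Which reads enter that total moves every FPKM of a library alike.

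The members and lists were chosen with earlier results of these data known. The log2 ratio of (FPKM + 1) was computed for all 26082 genes, a call was a ratio past 1.5-fold, and the background was the genes whose mean FPKM reached 1. Intervals (95%, exact Clopper-Pearson, or Woolf for ratios of counts) cover counting error only. The sources used here name no molecular identifiers, without which reads are not independent molecules. Named genes were all members, up to 4 genes past 1.5-fold and the 2 most abundant of each related list, and the 3 most abundant of each cell type list that is named. A withheld item is not reported here. The design was written for either unit, and no count model was fitted because no replicates exist. Exon lengths, GC content and overlaps came from GENCODE M21 on mm10, which holds 99.7% of the gene identifiers and lacks 70. Trends were removed by the median in 20 bins. The calculations used Python 3.11.15, pandas 2.3.3, numpy 2.4.6, scipy 1.17.1 and matplotlib 3.10.9, and were tested on simulated data. The alternatives were pseudocounts of 0.1 and 0.01, the plain ratio, no filter or a minimum of 5 FPKM, centring, a common FPKM sum, CPM computed from the counts, removal of the GC or length trend, and a 2-fold threshold.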

Additional observations from a re-analysis of the deposited data

How the results depend on the processing

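Lama2, Lama4, Lamb1 and Lamb2 were past 1.5-fold lower and Agrn past 1.5-fold higher under every alternative of pseudocount, filter, scaling, unit and composition, and Hspg2 was added as lower only with the exon length trend removed. At a 2-fold threshold, 0 members were lower by the log2 ratio of (FPKM + 1), but this depends on the setting. Lama2 and Lamb2 passed it when centred (−1.08 and −1.07), and Lama2 and Lama4 with the GC trend removed (−1.30 and −1.15). With the length trend removed Lama2, Lama4 and Lamb2 passed it (−1.29, −1.17 and −1.16). Agrn, past 2-fold higher as reported, fell short of it when centred (0.92) and with the length trend removed (0.80). The median log2 ratio of the members was −0.41 over genes whose mean FPKM reached 5, −0.44 when centred, −0.25 with FPKM rescaled to a common sum and −0.59 with the length trend removed. Over the alternatives the log2 ratio ran from −1.30 to −0.90 for Lama2, from −1.17 to −0.77 for Lama4, from −0.93 to −0.61 for Lamb1, from −1.16 to −0.82 for Lamb2 and from 0.80 to 1.15 for Agrn. That of Hspg2 ran from −0.74 to −0.16. The ratios of Lama5 (−0.10 to 0.48) and Lamc1 (−0.13 to 0.21) took either sign. The background past 1.5-fold, 4.91% lower and 13.3% higher, became 8.09% and 7.85% when centred, 5.81% and 6.37% with the GC trend removed, and 7.08% and 8.08% with the length trend removed. Applied to the related lists, a choice made after seeing the data, the alternatives left 0 basement membrane collagens past 1.5-fold lower with the GC trend removed and 1 with a common FPKM sum, put 3 other basement membrane components (1 as reported) past it when centred or with the length trend removed, with medians of −0.36 and −0.43, and moved the median of the receptors to −0.08 when centred and that of dystroglycan glycosylation to −0.06 at a mean FPKM of 5. No paired analysis was possible because each condition has 1 library, and for the same reason no replicate could be left out. The lowest count of a member, 1008, makes counting error small, but the spread between cultures is unknown.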

Other observations

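The enzymes that build the sugar chains of these proteins were examined as 2 further lists. Dystroglycan binds laminin, perlecan and agrin through a sugar chain that a series of enzymes assembles. Of the 17 genes listed for dystroglycan glycosylation, 14 had a mean FPKM that reached 1, of which 3 were past 1.5-fold lower in the library labelled TGFBR3 OE, 0 were higher, and the median log2 ratio was −0.26, beside 4.91% of the background genes past 1.5-fold lower and a background median of 0.14. Over genes whose mean FPKM reached 5, 2 were lower and the median was −0.06. The 3 supply sugar donors rather than extend the chain itself. Dpm3, a subunit of dolichol-phosphate-mannose synthase, was at 6.31 FPKM (395 counts) in the library labelled TGFBR3 OE and 15.96 FPKM (1356 counts) in the library labelled control, a log2 ratio of −1.21 (95% CI −1.36 to −1.07). Dpm1, the catalytic subunit of the same enzyme, was at 1.66 and 3.35 FPKM, a log2 ratio of −0.71 (95% CI −0.79 to −0.63). Gmppb, which makes GDP-mannose, was at 9.79 and 17.52 FPKM, a log2 ratio of −0.78 (95% CI −0.85 to −0.71). All 3 remained past 1.5-fold with the GC trend removed, at −1.21, −1.02 and −0.72. The glycosyltransferase B4gat1, among the most abundant of the list, was at 15.03 and 15.37 FPKM.

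Perlecan and agrin carry heparan sulfate. Of 22 genes listed for its synthesis and trimming, 21 were analysed here and 17 reached a mean FPKM of 1, of which 0 were past 1.5-fold in either direction, beside 4.91% of the background genes lower and 13.3% higher, with a median log2 ratio of −0.05. The sulfatase Sulf2 (47.46 and 49.42 FPKM) and the initiating transferase Extl3 (38.46 and 45.55 FPKM) were the most abundant.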
